A study of Mus musculus with 6 samples.

Results

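Solute carriers are membrane proteins that move ions, nutrients, metals and metabolites across the plasma membrane and the membranes of organelles. Their gene symbols give a family number and a member number, so Slc9a2 is member 2 of family 9. The genes described here were the rows of the deposited stiff-against-soft gel table whose symbol has the form Slc, number, a, number, without the families Slc25 (mitochondrial carriers) and Slc35 (nucleotide sugar carriers) and without Slc1a3, Slc2a1, Slc2a3, Slc8a1, Slc16a1 and Slc16a3. This left 205 of the 15016 genes in the table, in 47 families. The rule used symbols only and no measured value.

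RNA was sequenced from wild-type mouse cochlear organoids, 3-dimensional cultures grown from progenitor cells of the inner ear. All organoids were expanded in a medium of growth factors and small molecules, then given a differentiation medium with CHIR99021, which raises Wnt signalling by inhibiting GSK3, and LY411575, which blocks Notch cleavage. At that stage they were placed in soft GelMA-HA-RGD hydrogels (3 libraries) or stiff ones (3 libraries), so the medium was common to both groups and only the gel differed. The comparison addresses how the stiffness of the surrounding matrix acts on the differentiating organoids. The stiffness values, the time in the gels and whether replicates were separate cultures or animals are not stated in the labels. The p-values therefore reflect variation among these 6 libraries, and that variation may be technical.

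The cochlea depends on carriers to an unusual degree. Its fluid spaces differ in potassium and sodium, and cation-chloride cotransporters, bicarbonate exchangers and sodium-proton exchangers of the epithelia and the supporting cells take part in keeping them apart. Amino acid and sugar carriers feed growing cells, and zinc carriers set the zinc in the cytosol, with the Slc30 family moving zinc out of the cytosol and the Slc39 family moving it in.

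Depth, rebuilt from the deposited values, ranged from 16108470 to 17899391 reads per library. Markers of the labelled tissue were present: 6 prosensory and supporting cell markers, 5 of them at a mean of at least 1 FPKM, summed to 309 to 372 FPKM (fragments per kilobase of gene, scaled to library size) in the soft libraries and to 378 to 428 FPKM in the stiff ones. Epcam made up most of that sum, at means of 229 and 268 FPKM without a call (limma adjusted p under 0.05). Sox2 (1.47 and 5.03 FPKM), Jag1 (15.3 and 27.1 FPKM) and Lgr5 (26.2 and 54.3 FPKM) were called higher in stiff gels. Cdh1 went the other way, at 64.5 and 55.5 FPKM, without a call. Of the 4 macrophage markers 1 was listed, at a summed 4.58 to 6.82 FPKM, and of the 3 erythroid markers 1, at 0.502 FPKM or less. The endothelial list summed to 19.7 to 29.7 FPKM in soft gels and to 9.45 to 14.0 FPKM in the stiff ones, with Kdr carrying nearly all of it and the defining marker Pecam1 at a mean of 0.0672 and 0.0531 FPKM. The mesenchymal list summed to 105 to 118 FPKM in soft gels and 114 to 128 FPKM in stiff ones, and the Schwann and glial list, led by Sox10, to 66.0 to 93.2 FPKM and 82.5 to 100.4 FPKM. The part of the epithelial, glial and endothelial marker differences in the carrier results was not tested. In bulk samples, fewer cells of a type and less RNA per cell cannot be told apart. Soft replicate 1 stood on the stiff side of the mean of the other soft libraries for 95 of 138 tested carriers (68.8%) and for 73.4% of all tested genes. That mean enters both differences compared, which raises such a share by itself, and the other soft libraries were not scored this way. The median absolute log2 difference from single stiff libraries was 0.134 to 0.145 over the tested carriers for soft replicate 1. It was 0.155 to 0.184 for soft replicate 2 and 0.157 to 0.202 for soft replicate 3. Results are therefore also given without soft replicate 1. That library was picked from these same values as the soft one nearest to the stiff libraries. Leaving it out therefore tends to widen the differences between the gels. Without it 13.7% of all tested genes were called (limma adjusted p under 0.05), against 5.81% with all 6 libraries. A call gained in that fit is thus not independent support for a gene.

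Levels of the carriers ran from hardly detectable to about 100 FPKM. The highest was Slc38a2, a sodium-coupled carrier of small neutral amino acids, at 94.6, 90.4 and 98.7 FPKM in soft replicates 1 to 3 and 90.4, 95.0 and 103 FPKM in stiff replicates 1 to 3. The groups overlapped, and the log2 fold change was 0.02 with a 95% interval of -0.13 to 0.18 (limma adjusted p = 0.906). Slc39a7, which releases zinc from the endoplasmic reticulum, followed at 91.8 ± 5.70 and 89.9 ± 2.40 FPKM (mean ± SD, n = 3 libraries here and below), with an interval of -0.17 to 0.12. Next in order stood the zinc importer Slc39a1, the choline transporter-like gene Slc44a2 at 55.7 ± 5.90 and 58.5 ± 0.468 FPKM, the nucleoside carrier Slc29a1 at 50.7 ± 9.04 and 46.3 ± 2.92 FPKM, and Slc22a17, a receptor for lipocalin 2. The copper importer Slc31a1, at 44.9 ± 1.42 and 41.3 ± 1.40 FPKM, and the potassium-chloride cotransporter Slc12a7 closed the first 8. Slc38a2 and Slc39a7 had overlapping ranges, as did Slc44a2 and Slc29a1, so their order is not fixed by these libraries. These 8 genes held 29.2% of the summed FPKM of all 205, and 46 members had a mean of at least 10 FPKM.

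**Figure D1:**
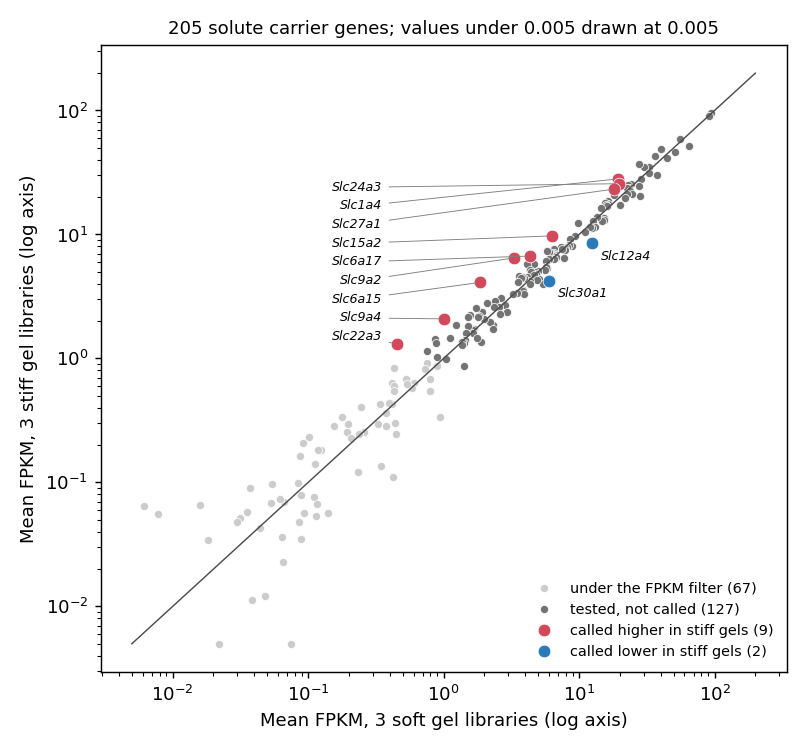
Mean FPKM in the 3 stiff gel libraries (vertical log axis) against the mean in the 3 soft gel libraries (horizontal log axis) for 205 solute carrier genes, with the line of equality. Most points lie near the line, and the 9 genes called higher and the 2 called lower in stiff gels lie off it at levels from about 1 to 30 FPKM.

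A mean of at least 1 FPKM in either gel was required for testing, and 138 of the 205 members passed. Of these, 8 passed through only one of the groups, among them Slc22a3 and Slc9a4, which passed through the stiff group where they are high. In stiff gels 9 carriers rose and 2 fell (limma on log2(FPKM + 1), Benjamini-Hochberg adjusted p under 0.05 over all 11780 tested genes). That is 7.97% of the tested members, read against 5.81% of all tested genes called in either direction, 3.13% called higher and 2.68% called lower. The share of called carriers is thus near the background. Groups did not overlap in 52 of the 138 members (37.7%), against 25.9% of all tested genes. In log2(FPKM + 1), where the added 1 shrinks changes of low genes, 0 members had an absolute log2 fold change over 1, 106 were under 0.25, and the median was 0.03 for the members and 0.03 for all tested genes. The means themselves differed 2.88-fold for Slc22a3, 2.21-fold for Slc6a15 and 2.09-fold for Slc9a4, and by less than 2-fold for the other tested members. The authors' deposited table, from another test of the same libraries, has 14 of the 138 members higher and 6 lower at q under 0.05, where 4.09% and 5.37% of the tested genes are called (9.46% in either direction); all 11 carriers called here are among them in the same direction.

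**Figure D2:**
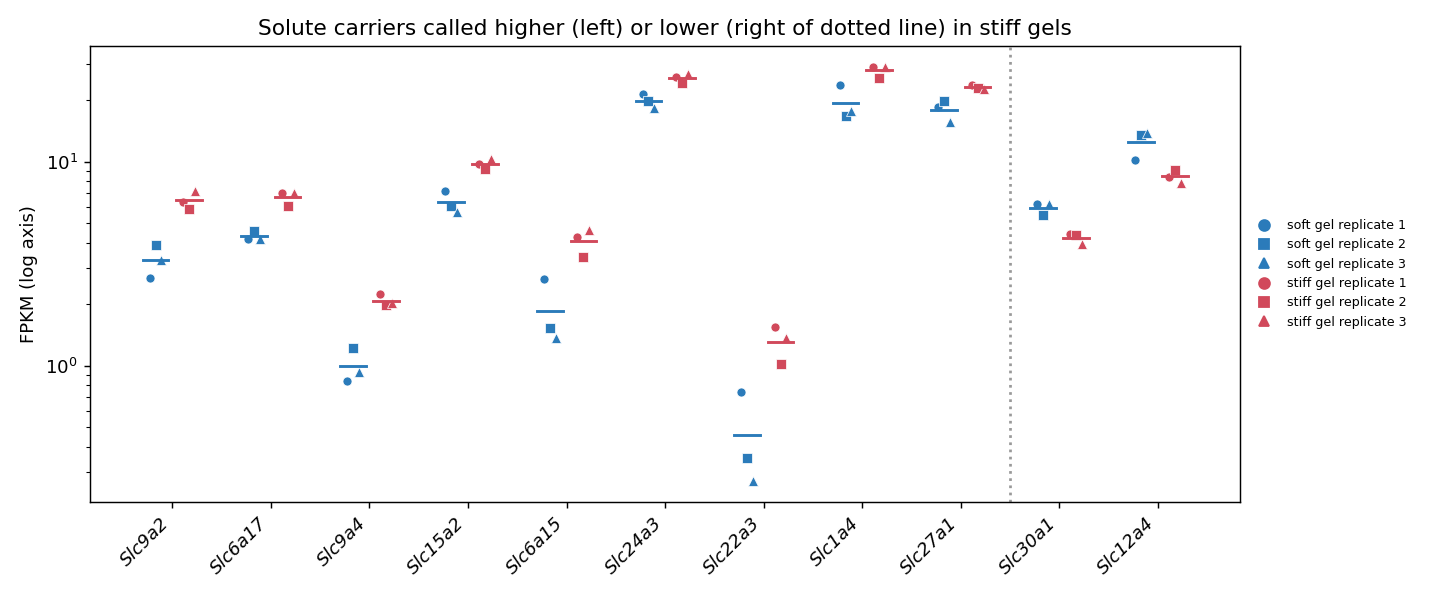
FPKM on a log axis in each library for the 11 called carriers, with bars at the group means of 3 libraries. Soft and stiff libraries do not overlap for any of the 11 genes, and for Slc1a4, Slc6a15, Slc22a3 and Slc12a4 among others, soft replicate 1 is the soft library nearest to the stiff ones.

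Among carriers that exchange sodium for protons or calcium, 3 of 10 tested members rose and 0 fell, where 3.13% of all tested genes were called higher and 2.68% lower. One of them, Slc9a4, passed the filter only through the stiff group. Slc9a2 encodes NHE2, a sodium-proton exchanger of the epithelial plasma membrane (chromosome 1, 40681712 to 40768885, RefSeq on GRCm38.p6, the assembly behind mm10). Its level was 2.68, 3.90 and 3.28 FPKM in soft gels and 6.31, 5.87 and 7.22 FPKM in stiff replicates 1 to 3. Every stiff library stood above every soft one, with a log2 difference of 0.81 ± 0.12 (SE) and a limma adjusted p of 0.0104. Its neighbour Slc9a4, encoding the exchanger NHE4 (chromosome 1, 40579986 to 40630731), was at 0.838, 1.22 and 0.935 FPKM in soft gels and 2.25, 1.98 and 2.03 FPKM in stiff gels, from 59, 89 and 68 reads against 163, 138 and 133. It too had separate groups, and its log2 difference was 0.63 ± 0.10 (SE), with a limma adjusted p of 0.0129, which understates a low gene: the means differed 2.09-fold. In the GENCODE M21 annotation 21.3% of its exonic bases are shared with opposite-strand genes, and the library kit did not mark strand, so some of its reads may belong to them. Slc9a2 lost its call only without stiff replicate 1 (limma adjusted p = 0.0528), and Slc9a4 without stiff replicate 1 or stiff replicate 3 (up to 0.0677).

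Slc9a2 held 7.18% to 9.20% of the summed Slc9 FPKM in soft and 13.6% to 15.7% in stiff libraries. Slc9a7, Slc9a8 and Slc9a9, sodium-proton exchangers of endosomes and the Golgi named after their values were seen, were not called, with log2 fold changes of 0.19, 0.03 and 0.30.

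Of the calcium exchangers, Slc24a3 rose. It encodes NCKX3, which moves calcium out of the cell against sodium entry and carries potassium with the calcium (chromosome 2, 145167775 to 145642166). Its level was 21.4, 19.8 and 18.3 FPKM in soft gels and 25.9, 24.4 and 26.8 FPKM in stiff gels, a small change with separate groups (log2 fold change 0.36 ± 0.07 SE; limma adjusted p = 0.0272). Its call held in 2 of the 6 fits that leave out a library and was lost without soft replicate 2, soft replicate 3, stiff replicate 1 or stiff replicate 3. Slc8a2, the sodium-calcium exchanger NCX2, was at 1.36, 2.16 and 2.16 FPKM in soft gels and 1.46, 1.38 and 1.20 FPKM in stiff gels, with no call (log2 fold change -0.29; limma adjusted p = 0.226) except without soft replicate 1.

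**Figure D3:**
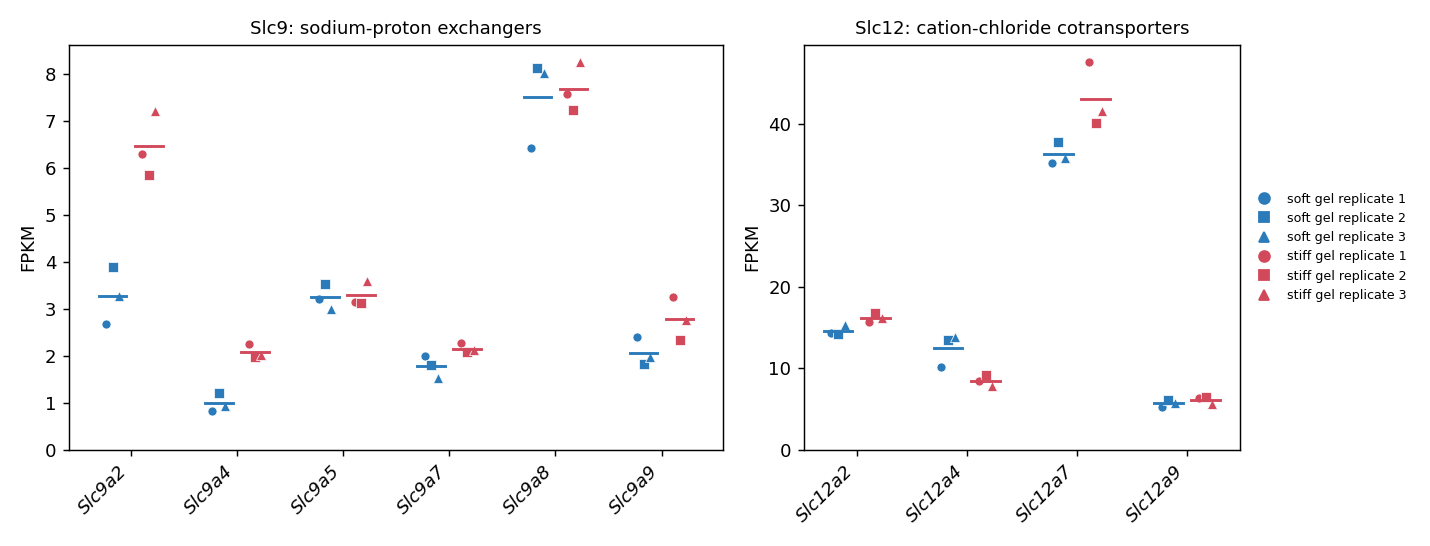
FPKM in each library for 6 members of the Slc9 family and 4 of the Slc12 family, with bars at the group means of 3 libraries. Slc9a2 and Slc9a4 are higher and Slc12a4 is lower in every stiff library, while Slc9a5, Slc9a8 and Slc12a9 have groups that overlap.

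Amino acid and peptide carriers were the largest group, with 32 tested members, of which 4 rose and 0 fell (all tested genes: 3.13% higher, 2.68% lower). Slc6a15 (B0AT2) and Slc6a17 (NTT4) are closely related sodium-coupled carriers of neutral amino acids that are known mainly from neurons, the latter from synaptic vesicles. Slc6a15 (chromosome 10, 103367808 to 103419379) was at 2.67, 1.54 and 1.37 FPKM in soft gels and 4.26, 3.43 and 4.63 FPKM in stiff gels. Its log2 difference was 0.86 ± 0.17 (SE) with a limma adjusted p of 0.0216, with soft replicate 1 between the other soft libraries and the stiff ones. Slc6a17 (chromosome 3, 107467548 to 107518018) was at 4.19, 4.59 and 4.17 FPKM and at 7.02, 6.05 and 7.02 FPKM, with tight groups (0.53 ± 0.08 SE; limma adjusted p = 0.0106). The neuronal markers were low in both gels, with Tubb3 at 1.31 FPKM in each and Elavl4 and Snap25 at a mean of 0.199 FPKM or less. Slc6a15 kept its call in 2 and Slc6a17 in 3 of the 6 fits that leave out a library; with limma adjusted p-values up to 0.0963 and 0.0586, both lost it without soft replicate 2, stiff replicate 1 or stiff replicate 3, and Slc6a15 also without soft replicate 3.

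Slc15a2 rose as well. It encodes PEPT2, which takes up di- and tripeptides with protons (chromosome 16, 36750161 to 36785158). It stood at 7.22, 6.08 and 5.67 FPKM in soft gels and 9.70, 9.19 and 10.3 FPKM in stiff gels (log2 fold change 0.56 ± 0.09 SE; limma adjusted p = 0.0132). The groups were separate, and the call ended, with a limma adjusted p of up to 0.0637, on leaving out soft replicate 2, stiff replicate 1 or stiff replicate 3. The related peptide carrier Slc15a1 (PEPT1), named after its values were seen, went the other way at a far lower level, from 14, 29 and 27 reads in soft to 6, 10 and 2 reads in stiff libraries; it was under the filter, and the authors' deposited table has it lower by a log2 fold change of -1.94 (q = 0.0247).

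Slc1a4 encodes ASCT1, an exchanger of serine, alanine and other small neutral amino acids (chromosome 11, 20302180 to 20332713). It was at 23.9, 16.7 and 17.7 FPKM in soft gels and 29.1, 25.8 and 29.2 FPKM in stiff gels, so that soft replicate 1 came close to the lowest stiff library. The log2 difference was 0.52 ± 0.12 (SE), with a limma adjusted p of 0.041, and the call held only without soft replicate 1 among the fits that leave out a library (limma adjusted p up to 0.143), and it went without the filter. Its relative Slc1a5 (ASCT2), the glutamine exchanger, named after its values were seen, stood at 21.7 ± 0.733 and 19.6 ± 0.986 FPKM without a call. Slc1a4 thus held 41.9% to 50.9% of the summed FPKM of the 5 Slc1 members in soft gels and 55.2% to 57.2% in stiff libraries. That sum leaves out Slc1a3, which the rule excluded.

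The promoter of Slc1a4 is shown because it was the only one of a called carrier with the letters of the C/EBP-ATF element, the sequence bound by ATF4 in genes of the amino acid response. RefSeq promoter windows on GRCm38.p6, from 250 bases before to 50 after a start, matched 8 of the 11 called members. The stretch runs from 100 bases before the start to 4 bases into the transcript on the minus strand, chr11:20332710-20332813, 5′ to 3′, with the element in capitals.
Slc1a4: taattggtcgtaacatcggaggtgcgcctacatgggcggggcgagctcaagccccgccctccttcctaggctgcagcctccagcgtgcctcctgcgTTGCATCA
The letters searched were TGATGNAA on both strands; 3.97% of all 32851 windows held them, 4.85% of the 206 windows of the carriers and 1 of the 12 windows of the called carriers. For the other motifs, also on both strands, the shares were 19.6% of all windows and 2 of those 12 for ACGTG (core of the hypoxia element), 41.3% and 6 for TGANNNNGC (antioxidant element), and 25.7% and 5 for TGCACNC or TGCGCNC (metal element). These are matches of letters, not measured binding.

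Other amino acid carriers had separate groups without a call. The taurine carrier Slc6a6, named after its values were seen, was at 33.6, 38.9 and 40.7 FPKM in soft gels and 29.8, 30.8 and 30.8 FPKM in stiff gels (log2 fold change -0.30; limma adjusted p = 0.0574). Slc38a4, a system A carrier of neutral amino acids, was at 22.5, 30.7 and 31.6 FPKM and at 19.3, 22.2 and 19.4 FPKM (log2 fold change -0.45; limma adjusted p = 0.0679); here soft replicate 1 was close to the highest stiff library. Both are lower in the authors' deposited table (q = 0.00363 and 0.00113), and Slc38a4 was called lower here without soft replicate 1. The glutamate carrier Slc1a2 (GLT-1) was at 1.58 ± 0.191 and 2.26 ± 0.0749 FPKM (log2 fold change 0.34; limma adjusted p = 0.0586) and is higher in the authors' deposited table (q = 0.00178). Slc3a2, the heavy chain that pairs with Slc7 light chains, and Slc7a5, the light chain LAT1, both named after their values were seen, had log2 fold changes of 0.03 and 0.10.

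Of the 7 tested organic ion carriers 1 rose, as did 1 of the 9 of lipids, choline and acetyl-CoA, where 3.13% of all tested genes were called higher. Slc22a3 encodes OCT3, a carrier of organic cations such as monoamines (chromosome 17, 12419972 to 12507704), and had 45, 22 and 17 reads in soft and 97, 61 and 77 reads in stiff libraries. In FPKM this was 0.742, 0.351 and 0.271 against 1.55, 1.01 and 1.37, without overlap (log2 fold change 0.67 ± 0.14 SE; limma adjusted p = 0.0317). The FPKM + 1 scale understates this change, since the means differed 2.88-fold. Its exons share 9.31% of their bases with Plg on the other strand. Slc27a1, or FATP1, activates and takes up long-chain fatty acids (chromosome 8, 71568728 to 71587307) and was at 18.4, 19.7 and 15.7 FPKM and at 23.8, 23.01 and 22.8 FPKM (0.36 ± 0.08 SE; limma adjusted p = 0.0415). The call of Slc27a1 was lost with median-ratio scaling, without the filter and in 5 of the 6 fits that leave out a library, all but the one without soft replicate 1, and that of Slc22a3 in 4, all but those without soft replicate 1 or stiff replicate 2. Slc22a17 stood at 40.1 ± 4.77 and 48.5 ± 2.68 FPKM without a call (limma adjusted p = 0.105). Slc22a21, a carnitine carrier, had the lowest value of its group, a log2 fold change of -0.16.

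Carriers of chloride, bicarbonate and sulfate had 17 tested members, of which 1 fell and 0 rose. That is 5.88% called, near the 5.81% of all tested genes called in either direction. The one that fell was Slc12a4, encoding the potassium-chloride cotransporter KCC1, which lets potassium and chloride leave swollen cells (chromosome 8, 105943590 to 105966149). It was at 10.2, 13.5 and 13.9 FPKM in soft gels and 8.40, 9.14 and 7.85 FPKM in stiff gels, with soft replicate 1 nearest to the stiff libraries (log2 fold change -0.51 ± 0.11 SE; limma adjusted p = 0.0356). The call remained without soft replicate 1 and went when any of the other 5 libraries was removed (limma adjusted p up to 0.136), or when the filter was. An opposite-strand gene shares 8.44% of its exonic bases. The related cotransporter Slc12a7 (KCC4) was at 35.2, 37.8 and 35.8 FPKM and at 47.6, 40.1 and 41.5 FPKM, with every stiff library above every soft one but no call (log2 fold change 0.24; limma adjusted p = 0.1). Slc12a4 held 13.2% to 16.8% of the summed Slc12 FPKM in soft gels and 9.00% to 10.6% in stiff libraries, and Slc12a7 held 43.3% to 45.8% and 46.5% to 51.0%.

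Among the 22 tested carriers of zinc and other metals 1 fell and 0 rose (4.55% called, near the 5.81% of all tested genes called in either direction). Of the 22, 18 had negative log2 fold changes. The median was -0.09, beside 0.03 for all tested genes, of which 4851 of 11780 were negative. Slc30a1, the zinc exporter ZnT1 of the plasma membrane, known as a target of the zinc sensor MTF1 (chromosome 1, 191906697 to 191913248), fell. It was at 6.17, 5.47 and 6.22 FPKM in soft gels and 4.43, 4.35 and 3.96 FPKM in stiff gels, with soft replicate 1 among the higher libraries (log2 fold change -0.41 ± 0.08 SE; limma adjusted p = 0.0218). Of the fits that leave out a library, only the one without soft replicate 1 kept this call (limma adjusted p up to 0.091). An opposite-strand gene shares 8.92% of its exonic bases.

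The zinc importers of the Slc39 family went both ways without a call. Slc39a1 (ZIP1) was at 59.4, 64.7 and 71.3 FPKM in soft gels and 54.2, 55.2 and 46.5 FPKM in stiff gels (log2 fold change -0.32; limma adjusted p = 0.0727). Slc39a8 (ZIP8), an importer of zinc, manganese and other metals, was at 33.4, 25.5 and 24.2 FPKM and at 39.6, 34.7 and 37.5 FPKM (0.43; limma adjusted p = 0.062). The groups were separate for both genes, both are called in the authors' deposited table (q = 0.0102 and 0.00453), and both were called here without soft replicate 1. Summed over the 28 listed metal carriers, FPKM was 430 to 442 in the soft libraries and 414 to 418 in the stiff ones.

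The remaining groups had 0 calls (limma). These were the 13 tested sugar carriers (2 with an unadjusted p under 0.05), the 8 of carboxylates and bile acids (1), the 14 of nucleosides, vitamins and heme (4), the 4 of phosphate and vesicular transmitters (0), and the 2 of the Slc66 family, which fall in no other group (0). Among all tested genes 21.7% had such a p. Of the sugar group, the proton-coupled carrier Slc45a4 had the highest log2 fold change, 0.21, and the choline carrier Slc5a7, in a family that also holds the sodium-glucose carriers, the lowest, -0.27. Slc10a3 and Slc16a6 marked the range of the carboxylate group at 0.24 and -0.14, Slc52a3 and Slc19a3, carriers of riboflavin and thiamine, that of the vitamin group at 0.34 and -0.37, and Slc34a2 and Slc20a2, both phosphate carriers, that of the phosphate group at 0.16 and -0.05. Slc44a4 had the lowest value of the lipid and choline group, -0.05.

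**Figure D4:**
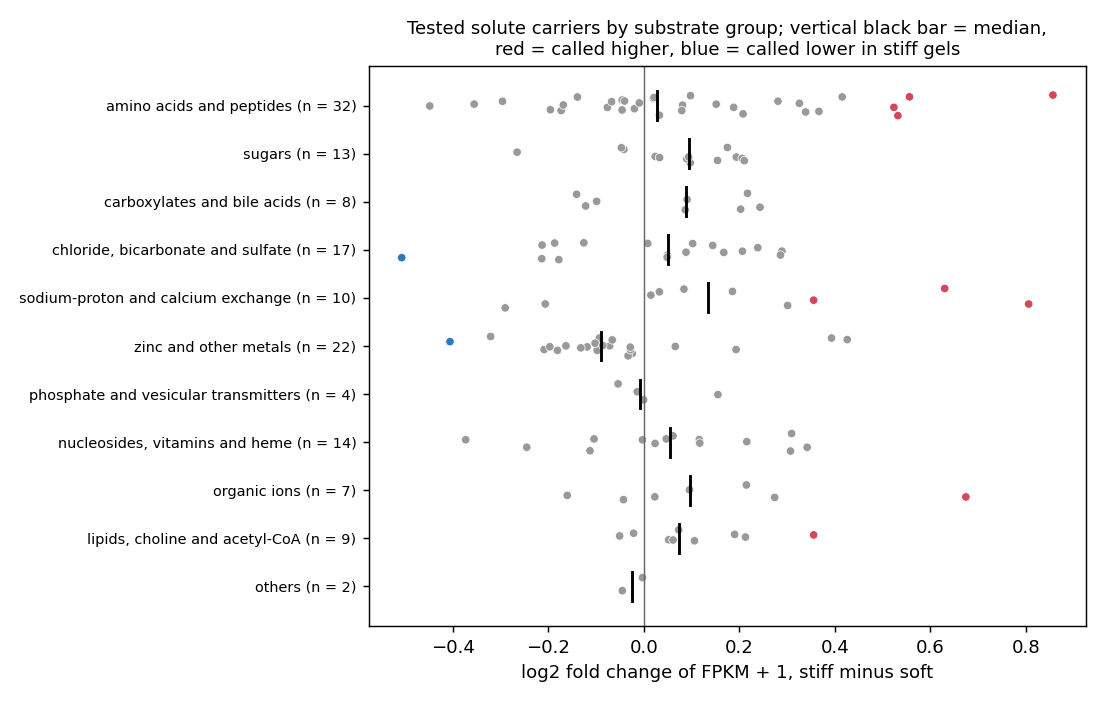
Log2 fold change of FPKM + 1, stiff minus soft, for the 138 tested carriers by substrate group, with a vertical bar at each group's median. Red points are the 9 called higher and blue points the 2 called lower, and the zinc and metal group has 18 of 22 points left of 0.

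Carriers known from hearing or cochlear physiology were followed as a list of 20 genes, of which 19 were in the table and 17 were tested. Of these 0 were called (limma; 9 had an unadjusted p under 0.05, 6 higher and 3 lower, where 12.7% of all tested genes were higher and 9.04% lower at that p). Slc26a4, or pendrin, the anion exchanger behind Pendred syndrome, was at 3.50, 3.54 and 3.73 FPKM in soft gels and 4.96, 3.51 and 5.51 FPKM in stiff gels. Stiff replicate 2 was thus at the soft level while the others were above it, and the gene was called higher only when that library was left out. Slc12a2 (NKCC1), which loads potassium into the stria vascularis, was at 14.6 ± 0.596 and 16.2 ± 0.563 FPKM (limma adjusted p = 0.222). Slc4a11, a borate transporter-like proton carrier, and Slc4a7, a sodium-bicarbonate cotransporter, were at 24.7 and 21.0 FPKM and at 13.2 and 11.5 FPKM, both without a call, though Slc4a11 was called lower without soft replicate 1. Slc7a8 (LAT2) was at 4.88, 3.15 and 4.27 FPKM and at 6.31, 5.67 and 5.27 FPKM, with separate groups and a log2 fold change of 0.42 (limma adjusted p = 0.092). It is called higher in the authors' deposited table (q = 0.0181).

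The thiamine carrier Slc19a2 was at 7.80 and 6.40 FPKM, the riboflavin carriers Slc52a2 and Slc52a3 at 1.66 and 1.71 FPKM and at 1.24 and 1.87 FPKM, and Slc22a4, a carrier of ergothioneine, at 1.12 and 1.46 FPKM. The lysosomal nucleoside carrier Slc29a3 was at 5.84 and 5.38 FPKM, and the acetyl-CoA carrier Slc33a1 at 8.51 and 9.24 FPKM. None of these 6 was called. Slc17a8 (VGLUT3), which loads glutamate into the vesicles of inner hair cells, was below the filter at 33 to 57 reads in soft and 50 to 62 reads in stiff libraries, and the glutamate carrier Slc1a1 had 3 to 12 reads per library.

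The 67 members under the filter had a median of 0.167 FPKM and 8 to 422 reads summed over the 6 libraries. With the filter removed, 8 of the 205 members were called higher and 2 lower, where 1.92% and 1.47% of all 15016 genes are called (3.39% in either direction). Among them was 1 of the 67, Slc14a1, the urea transporter UT-B, named after its values were seen. It was at 0.737, 1.27 and 0.797 FPKM in soft gels and 0.351, 0.423 and 0.233 FPKM in stiff gels, from 51, 91 and 57 reads and 25, 29 and 15 reads (log2 fold change -0.53; limma adjusted p = 0.0453 without the filter). In the authors' deposited table Slc14a1, Slc15a1 and Slc7a11 are the members under the filter that are called, all 3 lower. That makes 14 higher and 9 lower among the 205, where the whole table has 3.44% higher, 4.68% lower and 8.12% in either direction. Slc7a11, the cystine-glutamate exchanger xCT, named after its values were seen, had 75, 68 and 76 reads in soft and 47, 45 and 27 reads in stiff libraries (log2 fold change -0.86 in the authors' deposited table, q = 0.0378).

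Proteins that drive, chaperone or regulate these carriers were followed in a list of 46 genes, which also held organic anion carriers of the Slco family. Of the 46 genes, 43 were in the table and 33 were tested. Of these, 0 rose and 4 fell (12.1%), against 5.81% of all tested genes called in either direction and 2.68% called lower. The 4 include the organic anion carriers Slco2a1 and Slco5a1. At an unadjusted p under 0.05, 7 of the 33 were higher and 7 lower. The authors' deposited table has the same 4 lower and 3 higher, Fxyd6 (q = 0.0422), Wnk4 (q = 0.0245) and Car14 (q = 0.0118), named after their values were seen. Of the small FXYD regulators of ion transport, Fxyd5 fell: its mean was 19.5 ± 4.51 FPKM in soft gels against 9.84 ± 3.13 FPKM (log2 difference -0.93; limma adjusted p = 0.0357). Fxyd6 had separate groups in the other direction, at 4.33 ± 0.631 and 5.85 ± 0.301 FPKM, without a call (log2 difference 0.37; limma adjusted p = 0.0574). Carbonic anhydrase 13 (Car13), which interconverts carbon dioxide and bicarbonate, fell from 11.4 ± 0.686 to 8.64 ± 0.717 FPKM (-0.37; limma adjusted p = 0.0304). The organic anion transporters Slco2a1, which takes up prostaglandins, and Slco5a1 also fell. Slco2a1 was at 8.54, 11.2 and 10.4 FPKM in soft gels and 5.56, 5.07 and 4.41 FPKM in stiff gels (-0.87; limma adjusted p = 0.00732) and kept its call whichever library was left out. Slco5a1 went from 1.58 ± 0.580 to 0.570 ± 0.0317 FPKM (-0.69; limma adjusted p = 0.0336), and it passed the filter only through the soft group, where it is high. Fxyd5 lost its call in 4 of the 6 fits that leave out a library, and Car13 and Slco5a1 in 5, all but the one without soft replicate 1. Fxyd5 and Car13 also lost it without the filter, and Car13 with the replicate block.

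The number of called carriers depended on single libraries. Without soft replicate 1 it was 16 higher and 12 lower, where 7.29% and 6.42% of all tested genes were called (13.7% in either direction), and all 11 carriers called with 6 libraries were among them. Without stiff replicate 1 it was 0 and 0, without stiff replicate 3 it was 1 and 0, and without soft replicate 2 it was 2 and 0. Without soft replicate 3 it was 4 and 0, and without stiff replicate 2 it was 8 and 0. The share of all tested genes called was not counted for these other left-out libraries. Each of these fits has a library less in its group, which by itself weakens the test for every gene. Whether the loss of calls is particular to the carriers was not tested. Slc9a2 was called in 5 and Slc9a4 in 4 of the 6 such fits, and each of the other 9 called carriers in 3 or fewer. In all of these fits the 11 kept their direction.

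**Figure D5:**
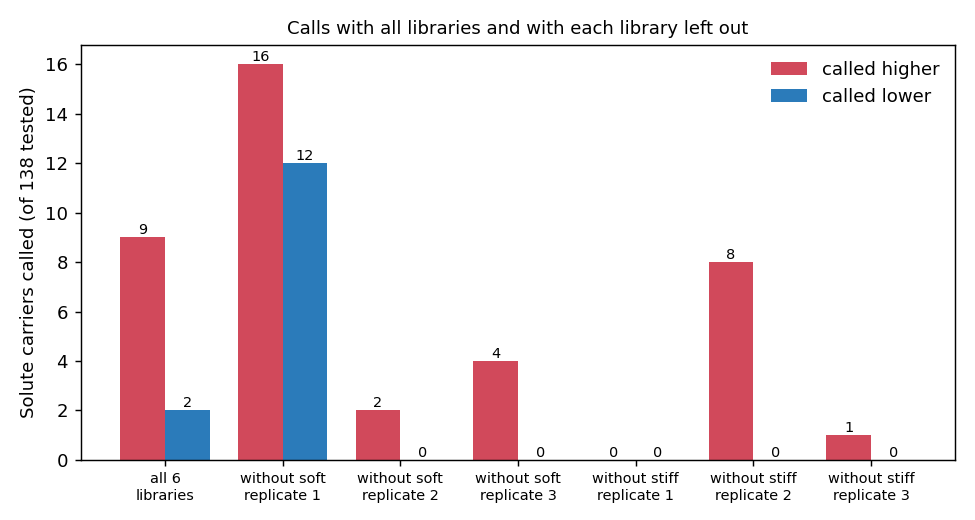
Number of solute carriers, of 138 tested, called higher (red bars) and lower (blue bars) in stiff gels with all 6 libraries and with each library left out. The counts are 9 and 2 with all libraries, 16 and 12 without soft replicate 1 and 0 and 0 without stiff replicate 1. Of all tested genes, 5.81% were called with all libraries and 13.7% without soft replicate 1. That share was not counted for the other fits.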

How the data were processed

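RNA was extracted from organoids in soft (3 libraries) and stiff (3 libraries) gels, and libraries were made with a kit that does not mark strand, per the labels' protocols. The submitters' processing notes name TopHat2 2.1.1, DESeq2 and mm10; the sources used here do not name the read counter or its annotation. The 6 expression columns were treated as the authors' FPKM; the header says only expression, so the unit was inferred from the values. Per the file headers, the deposited base mean is a signal (mean normalized count), and the log2 fold change with its error, the fold change ratio, the Wald score and the p-value and q-value are the authors' comparison of stiff with soft.

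Reads were rebuilt from FPKM and base mean; 100% of values came out whole within 0.05 reads, as did 100% of counts tested on simulated data. A count of 0 allows up to 3 reads, which here is 0.168 to 0.186 CPM (counting error only). The test was limma 3.58.1 in R 4.3.3 with an intensity trend on log2(FPKM + 1), 6 libraries, no block, all genes with a mean of at least 1 FPKM in either gel, Benjamini-Hochberg adjustment over all of them, threshold 0.05. On simulated data for stiff against soft over 11682 genes it recovered 98% of genes changed 1.5-fold and 100% changed 2-fold, with 13 false calls among 211. The changed genes were drawn only from those with a mean over 100 reads per library, so recovery at lower counts was not tested. Simulated spread followed a smooth trend with read count, and libraries were drawn independently. Genes with a larger spread, and shifts of a whole library, were therefore not covered. The recovered shares are not the power of the real comparison.

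Carriers were grouped by the substrate their family is known for. Named were all called members, the 8 highest by mean FPKM, the cochlear list, the extremes of each group with at least 3 tested members, and called genes of the partner list; others are marked where named. The members and lists were chosen with earlier results of these data known. Alternatives were another pseudocount (0.1), no filter, a minimum of 5 FPKM, median-ratio scaling, a replicate block, limma-voom on rebuilt reads, the authors' comparison, and leaving out each library. Some genes of these lists are not reported here.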

Additional observations from a re-analysis of the deposited data

How the results depend on the processing

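Against 9 carriers called higher and 2 lower, limma-voom on rebuilt reads gave 14 and 6, and the authors' deposited comparison gave 14 and 6. Leaving out 1 library gave 0 to 16 higher and 0 to 12 lower; the cause was not tested. The counts with another pseudocount (9 and 2), no filter (8 and 2), a minimum of 5 FPKM (6 and 2) and median-ratio scaling (8 and 2) stayed within 1.5 times. The replicate block gave 10 and 3. Besides the main fit, shares of all tested genes called were counted only without the filter, without soft replicate 1 and for the authors' deposited comparison. Whether the numbers pair the libraries is not stated in the labels. Deviations of same-numbered libraries correlated across genes at 0.00873, 0.22 and -0.21, and not every library correlated best with its own number. With 3 libraries per group these values cannot decide whether the libraries were paired. The 15 called genes that are named kept their direction in all 191 alternative values. Of the 34 named genes without a call, 24 of 430 alternative values gained one, 10 of them without soft replicate 1. Log2 fold changes near 0 changed sign: Slc38a2 was -0.0067 with median-ratio scaling and -0.0065 in the authors' deposited comparison. Over the fits that leave out a library, Slc38a2 ranged from -0.029 to 0.065, Slc20a2 from -0.12 to 0.011, Slc29a1 from -0.25 to 0.0032, Slc39a7 from -0.054 to 0.022, Slc44a4 from -0.17 to 0.062 and Slc52a2 from -0.023 to 0.072. The metal carriers stayed mostly negative, with 14 of 17 at a minimum of 5 FPKM and 17 or 18 of 22 under the other alternatives except no filter (23 of 28). Recovery of changes in carriers under 1 FPKM, with as few as 8 reads in all, was not tested.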

Other observations

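Both sodium-proton exchangers that rose lie side by side. Slc9a4 and Slc9a2 stand next to each other on chromosome 1, with 50980 bases between them and as neighbours among the table's genes, in RefSeq on GRCm38.p6. Of the 13 pairs of carriers that were neighbours among the table's genes, those with an untested member could not have both called. Among the rest, Slc9a4 and Slc9a2 were the only pair with both members called. Slc9a4 passed the filter only through the stiff group, where it is high. Of the 5 other pairs with both members tested, Slc38a1 and Slc38a2 had log2 fold changes of 0.02 and 0.02. The other 4 had estimates of opposite signs: Slc38a2 and Slc38a4 (0.02 and -0.45), Slc22a21 and Slc22a4 (-0.16 and 0.22), Slc22a5 and Slc22a21 (0.10 and -0.16), and Slc26a9 and Slc41a1 (0.21 and -0.09). None of these genes was called, and the sign of Slc38a2 is not settled, with a 95% interval of -0.13 to 0.18.

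Within 3 families, chosen after their values were seen, the balance between close relatives differed between the gels in every library. Slc15a2 held 57.0% to 66.0% of the summed Slc15 FPKM in soft and 72.5% to 74.4% in stiff libraries, and Slc15a4, a lysosomal histidine and peptide carrier, 30.0% to 36.9% and 24.6% to 25.7%. Slc6a6 held 50.6% to 55.3% of the Slc6 sum in soft and 43.7% to 45.4% in stiff libraries, whereas the creatine carrier Slc6a8 held 31.1% to 32.1% and 30.7% to 31.6%. Slc39a8 held 9.45% to 13.3% of the Slc39 sum in soft and 14.0% to 15.7% in stiff libraries, against 23.6% to 27.8% and 19.0% to 22.3% for Slc39a1. Shares within a family are tied to each other, so a rise in one lowers the rest. How many of the other families differ in this way was not counted. In FPKM, groups did not overlap in 25.9% of all tested genes.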
